A study of Oryza sativa with 2 samples.

Results

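The ascorbate peroxidase family of rice has 8 members, APX1 to APX8, and they were taken by a fixed list of locus identifiers that covers the named family. All 8 were listed among the 38511 loci measured in each library. The 2 RNA-seq libraries hold polyadenylated RNA from whole 3-week-old seedlings of wild-type Nipponbare, the japonica cultivar whose genome serves as the rice reference. The plants were raised in Yoshida nutrient solution in a growth chamber, under short days (10 h of light, 14 h of darkness) with light at 800 μmol m-2 s-1. Both libraries belong to the same untreated group, so the data describe levels and the spread between replicates. It is not stated whether different plants were used for each library, so that spread may be partly technical.

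Ascorbate peroxidases are haem enzymes that reduce hydrogen peroxide to water with ascorbate (vitamin C) as the electron donor. The oxidised ascorbate is recycled by monodehydroascorbate reductases, dehydroascorbate reductases and glutathione reductases in the ascorbate-glutathione cycle. Plants keep separate forms of the enzyme in the compartments where peroxide arises, which in leaves include the chloroplast, where photosynthetic electrons reduce oxygen, and the peroxisome, where photorespiration makes peroxide. In rice, APX1 and APX2 are the cytosolic forms and APX3 and APX4 the peroxisomal forms. APX7 is assigned to the chloroplast stroma, APX8 to the thylakoid membrane, and APX5 and APX6 to mitochondria or plastids. APX5 to APX8 are called the organellar members here.

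All 8 ascorbate peroxidase genes were expressed in the seedlings, at levels that spanned more than an order of magnitude. Levels are in FPKM (fragments per kilobase of transcript per 1000000 fragments), a unit already divided by transcript length, and loci whose mean reached 1 FPKM were counted as expressed. That threshold was met by 49.8% of all loci. The members ranged from a mean of 7.31 FPKM for APX5 to 253 FPKM for APX2, with a median of 86.4 FPKM, against a median of 9.91 FPKM over the 19187 expressed loci. Whole plants mix roots, leaves and stems, so a level reflects both how many cells express a gene and how much RNA each holds, which cannot be told apart here. Of the 8 values in each library, none was listed at 0. The 8 values added up to 825 FPKM in the first library and 841 FPKM in the second (833 ± 11.6, SD, n = 2), which was 0.126% ± 0.0042 of the summed FPKM of all loci.

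The cytosolic pair stood highest. APX2 (LOC_Os07g49400, chromosome 7) was measured at 248 FPKM in library 1 and at 259 FPKM in library 2 (253 ± 7.62, SD, n = 2). APX1 (LOC_Os03g17690, chromosome 3) had 237 and 213 FPKM (225 ± 16.9). APX2 was therefore above APX1 in both libraries, by 1.05-fold in library 1 and 1.22-fold in library 2, and the lowest APX2 value exceeded the highest APX1 value. Both lay above 98% of the expressed loci (98.5% for APX2 and 98.2% for APX1). The pair held 58.7% of the family's FPKM in library 1 and 56.0% in library 2 (57.4% ± 1.91, SD, n = 2).

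The peroxisomal pair was split between a high and a low member. APX4 (LOC_Os08g43560, chromosome 8) was measured at 136 FPKM in library 1 and at 156 FPKM in library 2 (146 ± 14.1, SD, n = 2). APX3 (LOC_Os04g14680, chromosome 4) had 9.86 and 10.5 FPKM (10.2 ± 0.48). APX4 was 13.8-fold higher than APX3 in library 1 and 14.8-fold higher in library 2, a gap far larger than the spread between replicates. APX3 lay near the middle of the expressed loci, above 50.8% of them, and APX4 above 96.8%. The pair held 18.7% ± 1.5 of the family's FPKM, nearly all of it from APX4, which alone held 17.5% ± 1.45.

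Among the organellar members, the thylakoid form was the highest. APX8 (LOC_Os02g34810, chromosome 2) was measured at 133 FPKM in library 1 and at 154 FPKM in library 2 (144 ± 14.8, SD, n = 2). APX7 (LOC_Os04g35520, chromosome 4), the stromal form, had 32.2 and 26.2 FPKM (29.2 ± 4.27). APX8 thus exceeded APX7 by 4.13-fold in library 1 and by 5.89-fold in library 2.

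APX6 and APX5 are neighbours on chromosome 12. APX6 (LOC_Os12g07820) was measured at 21.6 FPKM in library 1 and at 16.3 FPKM in library 2 (18.9 ± 3.72, SD, n = 2). APX5 (LOC_Os12g07830) had 7.75 and 6.88 FPKM (7.31 ± 0.61), the lowest level of the family. APX6 was the higher of these neighbours in both libraries, by 2.78-fold and 2.37-fold. The 4 organellar members together held 23.9% ± 0.42 of the family's FPKM, and 17.2% ± 1.54 of the family's FPKM was from APX8 alone.

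**Figure D1:**
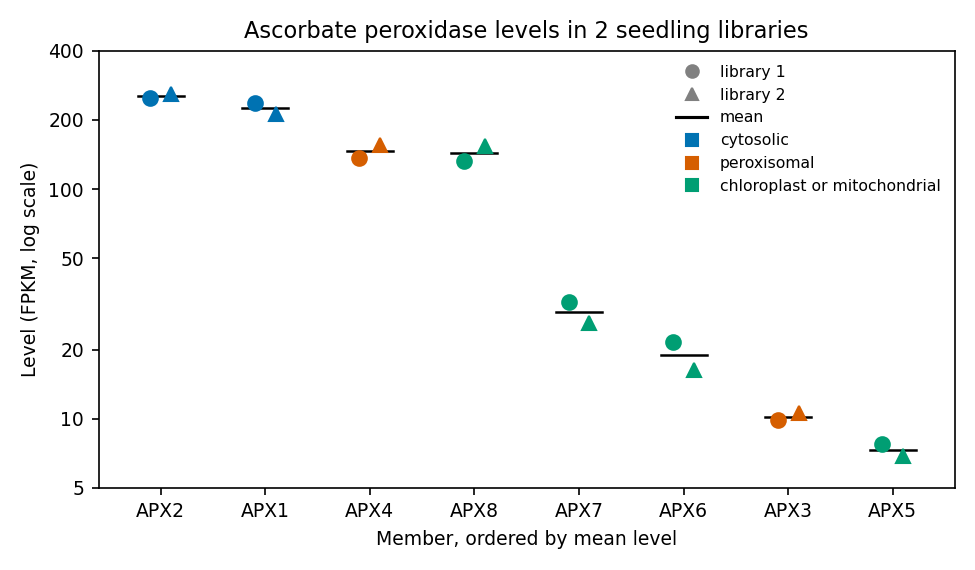
Level of each ascorbate peroxidase gene in FPKM on a log scale, with members ordered by mean. Circles are library 1, triangles library 2, short lines the mean of both, and colours the compartment. APX2, APX1, APX4 and APX8 lie above 100 FPKM in both libraries and the other 4 members below 100 FPKM.

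Ordered by level, the family ran APX2, APX1, APX4, APX8, APX7, APX6, APX3 and APX5, and the order was the same in both libraries. Of the 7 pairs of neighbours in that order, 6 had library values that did not overlap. The exception was APX4 and APX8, at 136 and 156 FPKM against 133 and 154 FPKM, a difference smaller than the replicate spread, although APX4 was slightly above APX8 in each library (1.02-fold and 1.01-fold). With 2 values on each side, a permutation test cannot pass a threshold of 0.05, so none was made. The order was set by the means of these same values, so the count of 6 describes the spread between libraries and does not test the order. The widest step between neighbours was the one from APX8 to APX7. It set apart 4 high members, which held 92.1% ± 1.08 of the family's FPKM (SD, n = 2), from 4 lower members, which held 7.89% ± 1.08. The high set contained the cytosolic pair, a peroxisomal form and the thylakoid form, all above 100 FPKM, a level that 2.65% of all loci reached. The lower set contained the stromal form APX7 (29.2 FPKM) and the other peroxisomal form, APX3 (10.2 FPKM). It also held APX6 (18.9 FPKM) and APX5 (7.31 FPKM), which are assigned to mitochondria or plastids.

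How the family's reads were assigned bears on the comparison of close relatives. The cytosolic forms resemble each other in sequence, as do the peroxisomal forms and the neighbours APX5 and APX6. The treatment of reads that match more than 1 locus is not given in the sources used here. The ratios within these pairs are uncertain to that extent. Sequences were not used, so the size of this limit was not examined for any pair, and the ratio of APX8 to APX7 may share it.

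**Figure D2:**
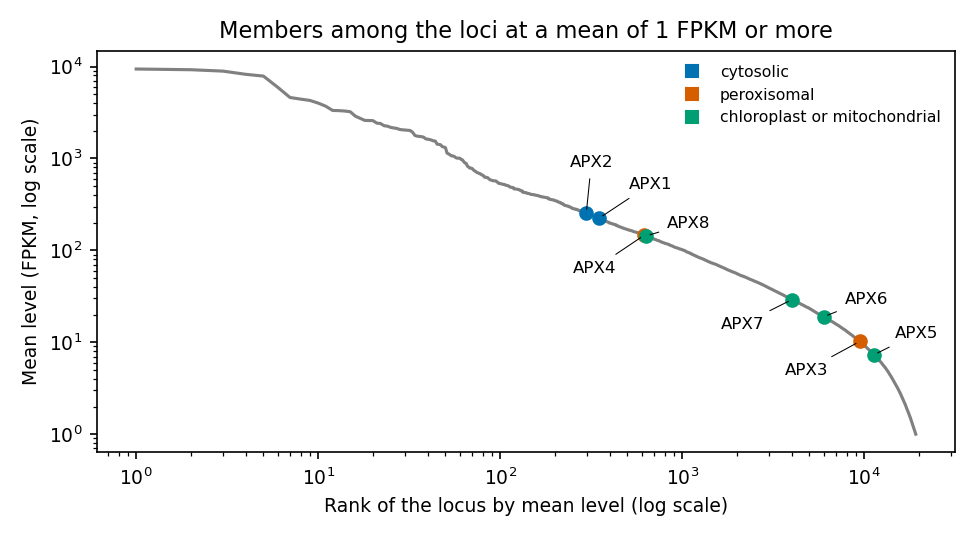
Mean level of the 19187 loci at 1 FPKM or more (grey line) against their rank, both on log scales, with the 8 members as points coloured by compartment. APX2 stands at rank 297 and APX1 at rank 350, APX4 and APX8 nearly coincide at ranks 617 and 633, and APX5 is lowest at rank 11293.

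The 2 libraries gave similar levels for every member. No member was 1.5-fold or more apart on the scale of log2(FPKM + 1), a scale that understates ratios of low values, whereas 16.5% of the 19187 expressed loci were (0 of 8 members). At a mean of at least 5 FPKM, which all 8 members reached, 14.6% of 13303 loci were 1.5-fold apart and 5.41% were 2-fold apart. At 2-fold, the share of expressed loci was 6.75%, and again 0 of 8 members. Among only 8 genes a count of 0 is close to these shares, so nothing particular to the family is read from it. A single library per side allows no test of 1 gene.

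APX6 differed most between the libraries. Its level in library 2 differed by -24.4% from that in library 1 (log2 ratio -0.38), and 29.8% of expressed loci had a larger absolute ratio. APX7 followed, at a log2 ratio of -0.29. APX2 differed least, at a log2 ratio of 0.06, with a coefficient of variation of 3.01%. APX3 also stayed close, at 0.09.

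APX8 and APX4 had the highest ratios toward library 2, at 0.21 and 0.20. APX1 and APX5 were both lower in library 2, each at -0.15. In all, 4 members were higher in library 2 and 4 in library 1, and of the 19187 expressed loci 10143 were higher in library 2. The median log2 ratio was -0.04 over the members and 0.02 over the expressed loci, where the SD was 0.58. Both peroxisomal members were higher in library 2, and their sum was 146 and 166 FPKM in libraries 1 and 2. The cytosolic sum was 484 and 471 FPKM, and the organellar sum 195 and 203 FPKM.

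**Figure D3:**
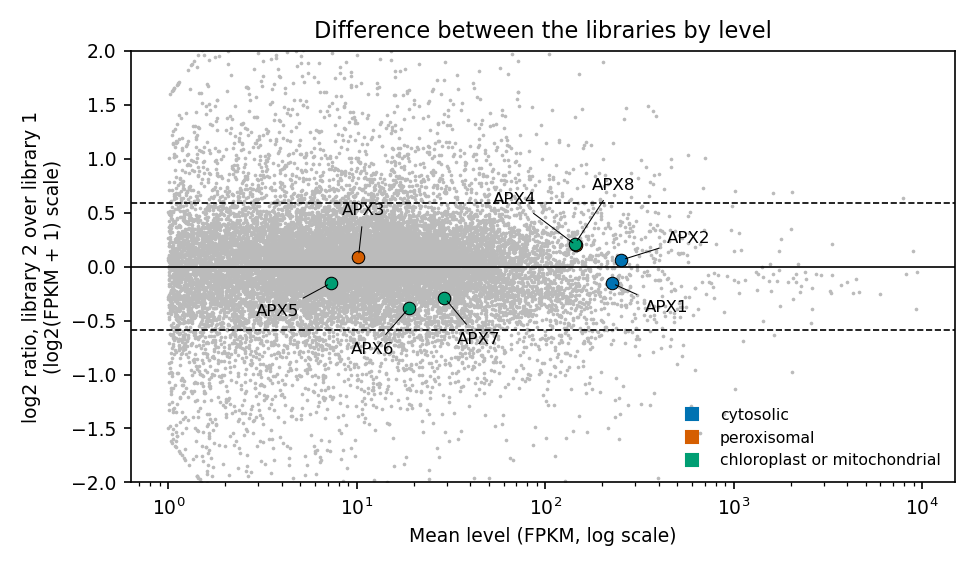
The log2 ratio of library 2 over library 1, on the log2(FPKM + 1) scale, against mean FPKM on a log axis, for the expressed loci (grey dots) and the 8 members (coloured by compartment). Dashed lines mark a 1.5-fold difference, and 266 loci beyond a log2 ratio of 2 in either direction are not drawn. All 8 members lie between the dashed lines, with APX6 lowest at -0.38.

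The members lie on 6 chromosomes, as read from their identifiers, which hold the chromosome and a number that increases along it. The reference table, matched by the names APX1 to APX8, placed 8 of 8 on the same chromosomes. APX6 and APX5 are adjacent, with 0 listed loci between them in the files and 0 genes between them in the reference table. APX3 and APX7 share chromosome 4 but lie far apart on it, at locus numbers 14680 and 35520. The remaining members, APX1, APX2, APX4 and APX8, are each alone on a chromosome.

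The surroundings of the 4 members above 100 FPKM differed in activity. None of the 10 loci nearest to APX1, APX2, APX4 or APX8, taken as 5 on each side in the order of the identifiers, had a higher mean, which their level nearly fixes, since few loci reach 100 FPKM. By these 10 neighbours APX8 stood in the quietest surroundings of the 4, with a median of 0.395 FPKM and a highest mean of 20.9 FPKM. The 10 neighbours of APX4 had a median of 0.895 FPKM and reached 82.7 FPKM. The 10 neighbours of APX2 had a median of 6.36 FPKM and reached 47.7 FPKM. APX1 lay among more active loci, with 9 of 10 neighbours expressed, a median of 25.3 FPKM and a highest mean of 149 FPKM.

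Some loci beside the other 4 members were above them, as the lower level of these members allows. By mean level, 3 of the 10 nearest loci were above APX3, 3 above APX5, 2 above APX7 and 1 above APX6. The locus above APX6 was below it in library 1 (19.1 against 21.6 FPKM) and above it in library 2 (20.8 against 16.3 FPKM). Likewise, 1 of the loci above APX3 was below it in library 1 (9.37 against 9.86 FPKM) and above it in library 2 (11.3 against 10.5 FPKM). One of the 3 loci above APX5 was APX6 itself. APX6 and APX5 had the same highest other neighbour, at 19.9 FPKM.

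APX3 lay in a sparsely expressed stretch of chromosome 4. Among the 100 loci nearest to it, at locus numbers 13190 to 16744, 35.0% were expressed and 54 were listed at 0 in both libraries, while 49.5% of all loci of that chromosome were expressed. Around APX7 on the same chromosome, 54.0% of the nearest 100 loci were expressed. Around APX1 the share was 66.0%, around APX8 60.0% and around APX4 47.0%. Over this wider window APX4 thus had a smaller share of expressed loci around it than APX8, and a lower median (0.866 against 2.45 FPKM). That was the reverse of the order by the nearest 10 loci. Counts of loci listed at 0 went the other way, at 16 around APX4 and 27 around APX8, so the order depends on the measure. For APX2, which is close to the end of chromosome 7, 59 loci were within reach and 74.6% of them were expressed. These shares describe the position of each gene and were not tested.

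**Figure D4:**
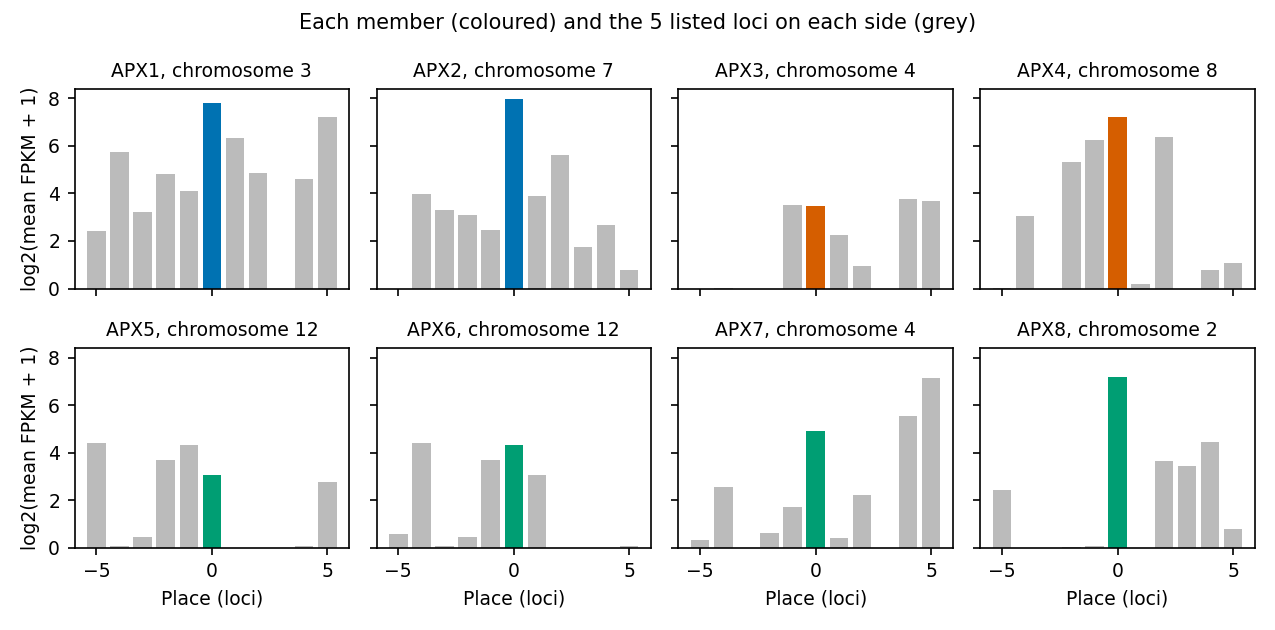
Mean level, as log2(mean FPKM + 1), of each member (coloured bar at place 0) and of the 5 listed loci on each side in the order of the identifiers (grey bars). APX1, APX2, APX4 and APX8 are the highest bars of their panels, whereas APX3, APX5, APX6 and APX7 have at least 1 neighbour above them.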

How the data were processed

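FPKM values, 1 per locus and library, were deposited by the authors and are named as such per the file headers. Cufflinks made them, per the submitters' processing notes, with no version. The sources used here do not give the aligner, genome build, annotation or strand setting. No model of read counts was applied to these normalized values. Sequencing depth is unknown beyond a ratio. It was read from 940 loci at a mean of 0.001 to 0.5 FPKM, above 0 in both libraries and less than 0.5 apart in log2 ratio. Their commonest ratio placed library 2 at about 1.09 times the depth of library 1. This assumes that loci at that ratio hold equal small read counts in both libraries, which was not tested. The bin of that ratio held 42 loci, against a median of 17 per bin, so the estimate is rough. The libraries summed to 670155 and 651935 FPKM.

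Means, SDs (n = 2), shares, ranks and log2(FPKM + 1) ratios with a pseudocount of 1 were computed with Python 3.11.15, NumPy 2.4.6 and pandas 2.3.3. All 8 members are named. Members and lists were chosen with earlier results of these data known. The planned list of 10 other enzymes of the ascorbate-glutathione cycle is not reported, because 0 of its identifiers matched the reference table (assembly ASM3414082v1). Loci without a chromosome number (257) were left out of positions. Sequences were not used here, and the tissue label was not checked against marker genes, since the identifiers carry no names. Alternatives were other scalings, thresholds, pseudocounts, filters and each library alone.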

Additional observations from a re-analysis of the deposited data

How the results depend on the processing

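Rescaling both libraries to a common sum of 1000000 raised the family's summed level from 833 to 1260 FPKM, because the deposited sums lie well below that total, and moved each member's mean by 1.51-fold. Under both scalings 6 of 7 neighbours in the order of levels still did not overlap, and shares within the family do not depend on scaling by construction. All 8 members passed thresholds of 0.1 and 5 FPKM, which the lowest mean, 7.31 FPKM for APX5, made certain. Under the other scalings and the other pseudocount, 0 of 8 were 1.5-fold apart. The other filters could not change that count, because all 8 members pass each of them. The direction of each member's log2 ratio was the same under both scalings and with a pseudocount of 0.1. Each library alone gave a family sum of 825 to 841 FPKM and a cytosolic share of 56.0% to 58.7%. The 2-fold count and the organellar share under other settings were added after the data were seen. No paired analysis was possible because no other group has libraries that could be matched to these, and ratios between members were taken within each library. Since depth is unknown, no counting error can be given for a single value.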

Other observations

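The deposited values differ in how many digits they carry. At 6813 expressed loci, 35.5% of them, at least 1 library had a value written with more than 6 significant digits. Among the ascorbate peroxidases this held for the adjacent genes APX5, in library 1, and APX6, in library 2, and for no other member. The files do not say whether the value of a locus is a sum over several transcripts, and this was not tested.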
